A study of Pimephales promelas with 338 samples.

Results

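The genes described here are the cytosolic ribosomal proteins and translation factors of the fathead minnow, Pimephales promelas, a North American freshwater fish used in toxicity testing. They were chosen by name among the 1832 probes of a targeted panel, as every probe whose gene symbol begins with rpl, rps, rplp, eif or eef followed by a digit. This gave 55 probes, each for a different gene. Of these, 20 were proteins of the large ribosomal subunit, 15 were proteins of the small subunit, 13 were initiation factors and 2 were elongation factors. The name rule also took eif4ebp1 (a translation repressor), eef2k (a kinase that acts on elongation) and 3 genes whose products are not ribosomal proteins or factors, namely rps6ka1, rps19bp1 and rpl7l1. The values are of messenger RNA, and neither protein nor the rate of translation was measured.

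Larvae were exposed one to a well for 24 h to 1 of 12 chemicals, or to caffeine as a positive control, or to the solvent DMSO alone. RNA was read by TempO-Seq, in which a pair of detector oligonucleotides is ligated on its transcript, amplified and counted. Each of 6 exposures tested a pair of chemicals on 3 plates at 8 concentrations, labelled D1 to D8, with a library per plate made from the pooled homogenate of up to 5 whole larvae. Homogenates of larvae that had died were not pooled, so a pool can hold fewer.

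The exposures are named here by their labels. C1C2 tested Metolachlor OA, a breakdown product of the herbicide metolachlor, and 3,4-Dichlorophenyl isocyanate, a reactive aromatic isocyanate. C3C4 tested 1(2H)-Phthalazinone and the anticonvulsant Gabapentin. C5C6 tested Metribuzin-DA, a breakdown product of the herbicide metribuzin, and 2-tert-Butyl-4-methoxyphenol, a phenolic antioxidant. C7C8 tested the diuretic Hydrochlorothiazide and 4-Chlorophenyl methyl sulfoxide. C9C10 tested the antihistamine Cetirizine and Fipronil amide, a breakdown product of the insecticide fipronil. C11C12 tested the antihistamine Fexofenadine and cis-Nonachlordane, a chlordane constituent. The series ran from 66.67 to 0.021 µM, except 56.43 to 0.018 µM for Fipronil amide and 32.2 to 0.011 µM for Fexofenadine. DMSO was brought to the same level in every well of an exposure, at most 0.34%, so the chemical and caffeine larvae carried it as well as the DMSO larvae. The labels order the codes but do not say which of D1 and D8 was the highest concentration. There were 3 libraries for each of 95 groups of chemical and code, and 1 library for D1 of 2-tert-Butyl-4-methoxyphenol. Caffeine and DMSO had 18 plate libraries each, 3 in every exposure. A separate quality-assurance (QA) set held 8 caffeine and 8 DMSO libraries.

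Translation begins when initiation factors bring the small subunit, the initiator transfer RNA and the messenger RNA together, and elongation factors then carry the joined ribosome along the message. Ribosomal protein messages are among the most abundant in growing animal cells, and their synthesis and use are tied to growth through the mTOR kinase. In a whole larva they come from every tissue, so a change in the make-up of the pool and a change within cells both reach the probe: fewer cells of a type and less RNA per cell cannot be told apart.

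The libraries held 112247 to 1029511 counts, with a median of 609598. Of the 55 genes, 53 passed the filter on low counts (a minimum count of 10) in at least 1 comparison. The exceptions were rps19bp1, named after a binding partner of a ribosomal protein, which was at 0 in 143 libraries, and eif2s1a, a subunit of initiation factor 2, which was at 0 in 60. Markers of muscle (1 probe), liver (5), skin and skeleton (6), neurons (3), gut and pancreas (3) and dividing cells (6) had counts in the DMSO libraries. The 6 skin and skeleton markers are all collagen genes. Of 2 erythrocyte markers alas2 was near or at 0, and the panel held no retina marker of the list. A probe reads a short stretch, its efficiency is its own, and near-identical copies of a gene can share it. Levels are therefore given as CPM (counts scaled to a fixed library total) or as shares of counts, and an order between genes is an order of probe counts, not of transcripts.

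Close to 45% of all counts came from these 55 probes, and this share varied little. It ran from 41.3% to 49.6% over all libraries of the series, with a mean of 45.6% ± 1.46 (SD). It averaged 45.6% ± 1.49 in the 286 chemical libraries, 45.8% ± 1.24 in the 18 caffeine plate libraries and 45.5% ± 1.24 in the 18 DMSO plate libraries (SD). In the QA set it was 45.5% ± 1.46 in caffeine and 45.4% ± 1.33 in DMSO (SD, n = 8 each). These groups overlapped almost completely. Of the 96 groups of chemical and code, the lowest mean was 43.8% ± 1.90 in Fipronil amide D6 and the highest was 47.8% ± 2.10 in Metribuzin-DA D4 (SD, n = 3 each). Between the DMSO groups the mean was highest in C1C2, at 46.4% ± 0.478, and lowest in C9C10, at 43.9% ± 0.798 (SD, n = 3 each). The 3 DMSO libraries of C7C8 alone spread from 43.5% to 48.0%, wider than that gap. The share is given as a description, with no test.

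**Figure D1:**
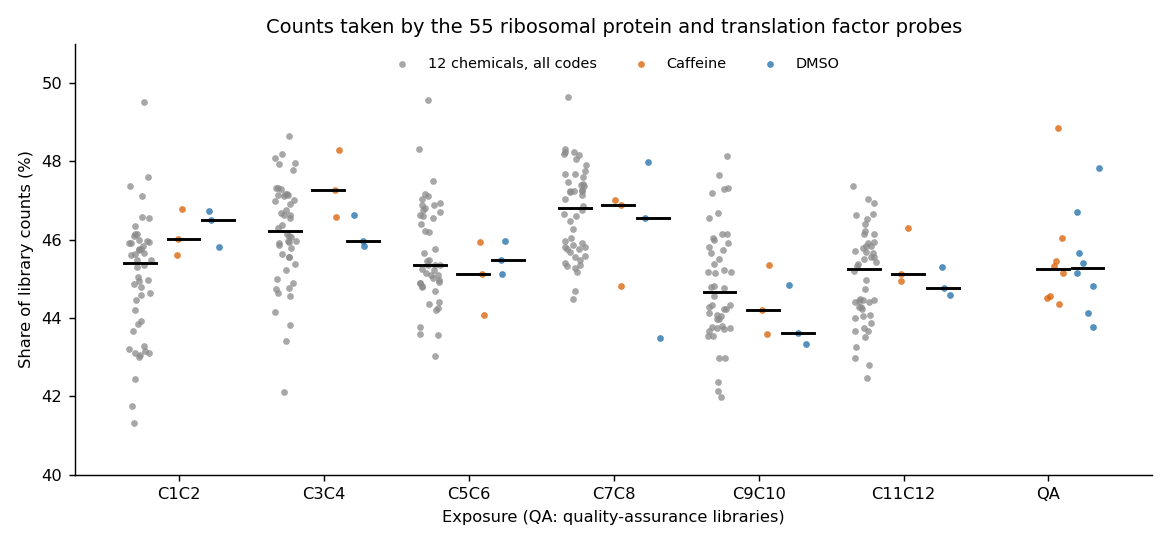
Share of library counts (%, vertical axis) taken by the 55 ribosomal protein and translation factor probes, for every library, by exposure and in the QA set; points are libraries, coloured by chemical, caffeine or DMSO, bars are medians, and the axis starts at 40%. All libraries lie between 41.3% and 49.6%, and the 3 kinds of library overlap in each exposure.

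Ribosomal proteins supplied nearly all of it. In the 18 DMSO plate libraries the large subunit took 22.8% ± 0.579 of counts and the small subunit 21.7% ± 1.00 (SD). The 13 initiation factors took 0.624% ± 0.0272 (SD, n = 18) and the elongation factors 0.227%. The 6 probes with the most counts, rps27a, rpl36a, rpl32, rps13, rps25 and rpl39, together took 22.5% of counts. Only the plasma apolipoprotein apoa2, at 90845 CPM, stood above them among the 1832 probes.

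Among small subunit proteins, rps27a, which is made as a fusion with ubiquitin, averaged 52296 ± 5443 CPM in DMSO plate libraries, 5.23% of all counts (SD, n = 18). With rps27a also taken out of the library total, the other probes of the 55 took 42.5% of the remaining counts. The small subunit proteins rps13 and rps25 averaged 32892 ± 2042 and 30342 ± 3568 CPM (SD, n = 18 each). Among large subunit proteins, rpl36a averaged 43253 ± 4832 CPM, rpl32 averaged 37642 ± 9645 CPM, and rpl39, which lines the exit tunnel of the ribosome, averaged 28284 ± 5954 CPM (SD, n = 18 each). The spread was unlike among these 6. As a coefficient of variation (SD as a percentage of the mean) it was 6.21% for rps13 and 25.6% for rpl32 over the 18 DMSO plate libraries, which come from 6 exposures. For rpl32 it was 3.79% over the 8 DMSO libraries of the QA set. The largest such spreads among the probes that passed the filter were 52.7% for rps10, 49.3% for eif2b1, 39.1% for eef2k, 35.0% for rpl6 and 33.7% for rps27l, all with few counts (these 5 were picked out after their values were seen).

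The factors had far fewer counts. The elongation factor subunit eef1g, part of the complex that recharges the factor bringing transfer RNA to the ribosome, averaged 2223 ± 324 CPM in the DMSO plate libraries (SD, n = 18). The initiation factor with the most counts was eif1axa, which takes part in start codon scanning, at 1635 ± 133 CPM, followed by eif2s2, a subunit of the factor that carries the initiator transfer RNA, at 1157 ± 169 CPM (SD, n = 18 each). The 4 eif3 subunits eif3d, eif3k, eif3c and eif3ea, parts of the scaffold that binds the small subunit, averaged 772, 452, 383 and 152 CPM. The scaffold and helicase factors eif4g2a, eif4g1a and eif4ba averaged 565, 415 and 364 CPM. These factors are given for their place in the pathway, chosen after their values were seen.

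Ribosomal protein probes had smaller errors than the median probe of the panel. Over the comparisons of a code with DMSO, the median standard error of a log2 change was 0.0985 to 0.153 for the 35 ribosomal proteins, depending on the chemical, and 0.235 to 0.260 for all tested probes.

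Control larvae of the 6 exposures were compared first, since these levels set the ground against which the chemicals were read. Between exposures the DMSO means of rps10 and rpl6, both of few counts, were up to 4.02-fold and 2.50-fold apart. Those of rpl32 were up to 1.90-fold apart, and those of most ribosomal protein probes less. In the DMSO libraries 9 of 53 tested genes differed between the 6 exposures (edgeR quasi-likelihood F-test, adjusted p below 0.05 over all tested probes), against a background of 9.77% of the 1474 tested probes. An unadjusted p below 0.05 was found for 25 of 53. Here and below, such unadjusted counts have no share of all probes beside them and cannot be read as a result about these genes. Of the 9, large subunit proteins made 5 of 20, small subunit proteins 3 of 15 and elongation factors 1 of 2, and 0 of the 12 tested initiation factors passed, with 4 below 0.05 unadjusted (DESeq2 likewise called none of them). The median ratio of the highest to the lowest exposure mean was 1.31 for the 53 genes and 1.5 for all tested probes, and 13 of the 53 had a ratio above 1.5. In the caffeine libraries of the same plates, which share no library with the DMSO test, 19 of 53 differed, against a background of 18.8% of the 1466 tested probes. Those were 10 of 20 large subunit proteins, 4 of 15 small subunit proteins, 4 of 12 initiation factors and 1 of 2 elongation factors.

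The large subunit protein rpl32 had the smallest adjusted p of these genes in both kinds of control. In caffeine larvae it was at 57964, 54526 and 52559 CPM in C1C2 and at 26845, 20491 and 23377 CPM in C11C12. In DMSO larvae it was at 59049, 52624 and 50320 CPM in C1C2, against 34097, 26425 and 24660 CPM in C5C6 and 29404, 29097 and 27284 CPM in C11C12. Every C1C2 control library stood above every other control library, and the QA libraries lay between 25957 and 32879 CPM. The ratio of the highest to the lowest exposure mean of rpl32 was 2.33 in caffeine (adjusted p = 1.95e-05) and 1.90 in DMSO (adjusted p = 5.59e-05). It was 1.93 over the means of all chemical libraries, highest in C1C2 there too and lowest in C11C12. The chemical libraries of these 2 exposures overlapped, and each mean takes in all codes of both chemicals.

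The small subunit protein rps10 moved with a larger ratio at a far lower count. It was at 302, 270 and 211 CPM in the caffeine libraries of C1C2 and 59.4, 50.9 and 86.4 CPM in those of C11C12, a ratio of 3.98 (adjusted p = 0.00132). In DMSO it was at 335, 301 and 234 CPM in C1C2 and 65.2, 45.6 and 105 CPM in C11C12, a ratio of 4.02 (adjusted p = 0.000645). The 2 exposures did not overlap in either. Within the QA set rps10 also varied widely, with a coefficient of variation of 35.3% in caffeine and 31.6% in DMSO (n = 8 each). There it ran from 52.2 CPM on QA plate 4 to 133 CPM on QA plate 1 in caffeine. In DMSO it ran from 64.5 to 160 CPM on the same QA plates. The large subunit protein rpl6 was also highest in C1C2, at 180, 325 and 233 CPM in caffeine and 242, 233 and 250 CPM in DMSO. Its lowest exposure was C11C12 in caffeine (ratio 2.12, adjusted p = 0.00681) and C5C6 in DMSO (ratio 2.50, adjusted p = 0.00345).

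Other genes ran the other way. The large subunit protein rpl11, which in mammals also binds the p53 regulator MDM2 when ribosome assembly fails, was lowest in C1C2. Its caffeine libraries held 20324, 19140 and 18027 CPM in C3C4 and 12277, 12463 and 11121 CPM in C1C2, a ratio of 1.6 (adjusted p = 0.000880). Its DMSO libraries held 20060, 18622 and 16781 CPM in C5C6 and 13150, 12625 and 13623 CPM in C1C2, a ratio of 1.41 (adjusted p = 0.0295). The small subunit protein rps20 was highest in C11C12, at 10914, 11934 and 9126 CPM in caffeine, and lowest in C1C2, at 4311, 5613 and 4933 CPM (ratio 2.15, adjusted p = 0.000470). In DMSO the same exposures gave rps20 levels of 7744, 8114 and 7965 CPM and of 4426, 5229 and 5373 CPM without overlap, and the test over 6 exposures missed the threshold (ratio 1.59, adjusted p = 0.101).

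The other DMSO calls, and those among the 10 smallest adjusted p-values in caffeine, had ratios of 1.31 to 1.65. In DMSO, eef1g had a ratio of 1.5 (C1C2 over C5C6, adjusted p = 0.0253), the small subunit protein rps4x of 1.39 (C1C2 over C5C6, adjusted p = 0.0249) and rpl19 of 1.32 (C1C2 over C3C4, adjusted p = 0.0277). The large subunit protein rpl28 had a DMSO ratio of 1.31 (C1C2 over C9C10, adjusted p = 0.0362). In caffeine, rpl28 was again highest in C1C2 (ratio 1.52, adjusted p = 0.00867), while rpl36 and rpl26 were highest in C11C12 and lowest in C1C2 (ratios 1.51 and 1.65, adjusted p = 0.00888 and 0.0130). For its part rpl22, of the large subunit, was highest in C3C4 (ratio 1.31, adjusted p = 0.0156) and the initiation factor eif4g2a, which serves initiation that bypasses the cap-binding protein, in C5C6 (ratio 1.37, adjusted p = 0.0118), both with C1C2 lowest in caffeine.

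**Figure D2:**
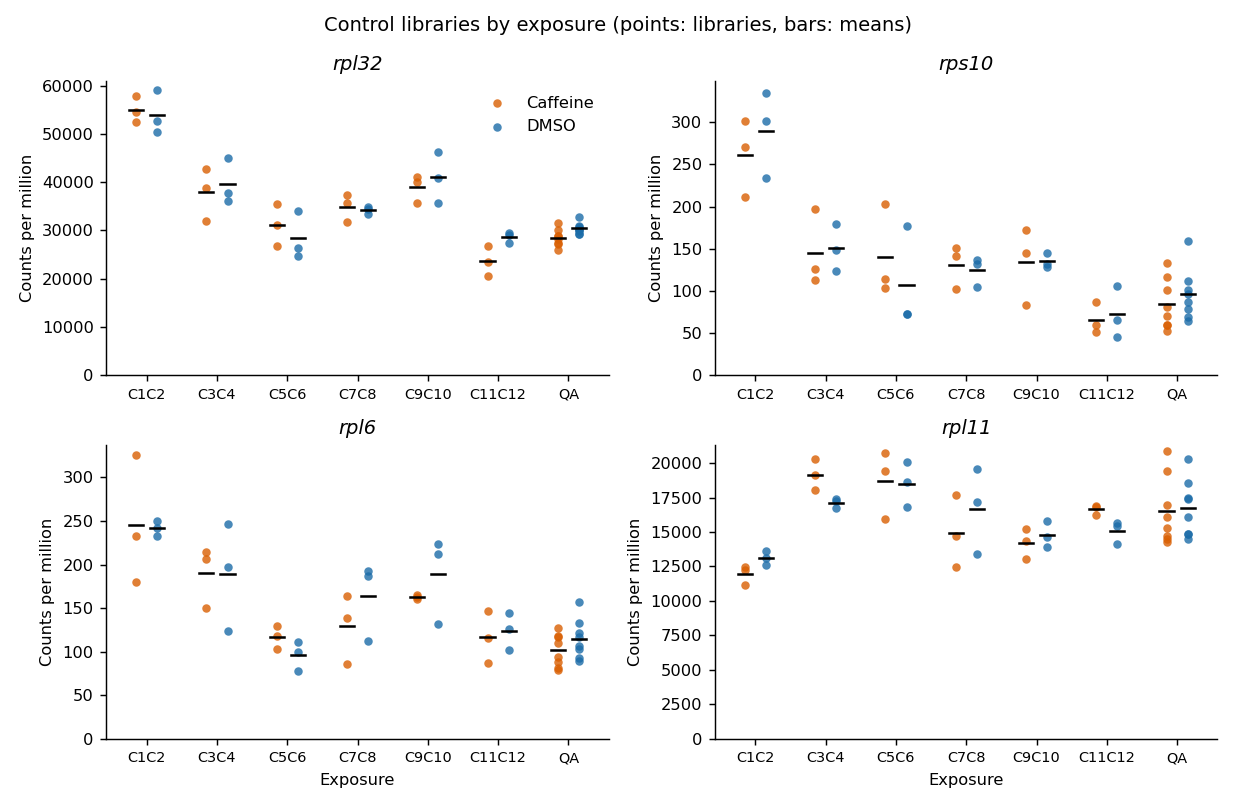
CPM (vertical axes) of rpl32, rps10, rpl6 and rpl11 in control libraries by exposure, caffeine left of DMSO; points are libraries and bars are means of 3 (8 in the QA set). The first 3 genes are highest in C1C2 and rpl11 is lowest there, in caffeine and in DMSO alike.

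Of the 9 genes called in DMSO and the 19 called in caffeine, 6 were called in both, which is 66.7% of the DMSO calls and 31.6% of the caffeine calls. Over all probes the 90 shared calls were 62.5% and 32.7%. C1C2 was the exposure with the most extremes in DMSO when both ends are counted, holding the highest mean of 15 of the 53 genes and the lowest of 14. In caffeine it was C11C12, with the highest mean of 15 and the lowest of 13, while C1C2 held 10 and 15. The like shares of all probes were not counted, so these numbers cannot be read as a result about these genes. The exposures differ in more than larvae: their libraries also differ in depth, with mean totals of 499460 to 676348 counts over the 6 DMSO groups. The labels name no batch but give well positions. Within a plate letter no well repeats among C1C2 to C7C8, while C9C10 and C11C12 repeat some of those wells. Between exposures the marker lists differed as well, for 2 of 5 liver, 1 of 6 skin and skeleton, 2 of 3 gut and pancreas and 2 of 6 dividing-cell markers in DMSO. In caffeine they differed for the muscle marker, 1 of 5 liver, 1 of 6 skin and skeleton, 2 of 3 gut and pancreas and 4 of 6 dividing-cell markers. Summed over its list, the liver markers had 88283 ± 9964 CPM in DMSO C1C2 and 115703 ± 5864 CPM in DMSO C5C6 (SD, n = 3 each), and the dividing-cell markers 1640 ± 158 and 1700 ± 120 CPM in the same groups. Each sum is largely the reading of 1 probe. Over the 18 DMSO plate libraries apoa2 averaged 90845 CPM of a liver sum of 94918 CPM. The marker pcna averaged 1211 CPM of a dividing-cell sum of 1601 CPM. The part of the markers in the differences was not tested. Without C1C2 the DMSO test called 1 of 53 genes, and rpl32 was not called, while the caffeine test called 8 of 53, with rpl32 among them. Without plate letter A the counts were 5 and 8, without letter B 1 (rpl32) and 3 (rpl11, rpl32 and rps20), and without letter C 12 in each. Within C1C2 to C7C8, where no well repeats within a plate letter, they were 14 and 10 with the letter as a block and 5 and 4 without the block. That block treats a letter as shared by these exposures, which the labels do not state. The backgrounds given above are those of the full tests, so these counts have no share of all probes beside them.

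**Figure D3:**
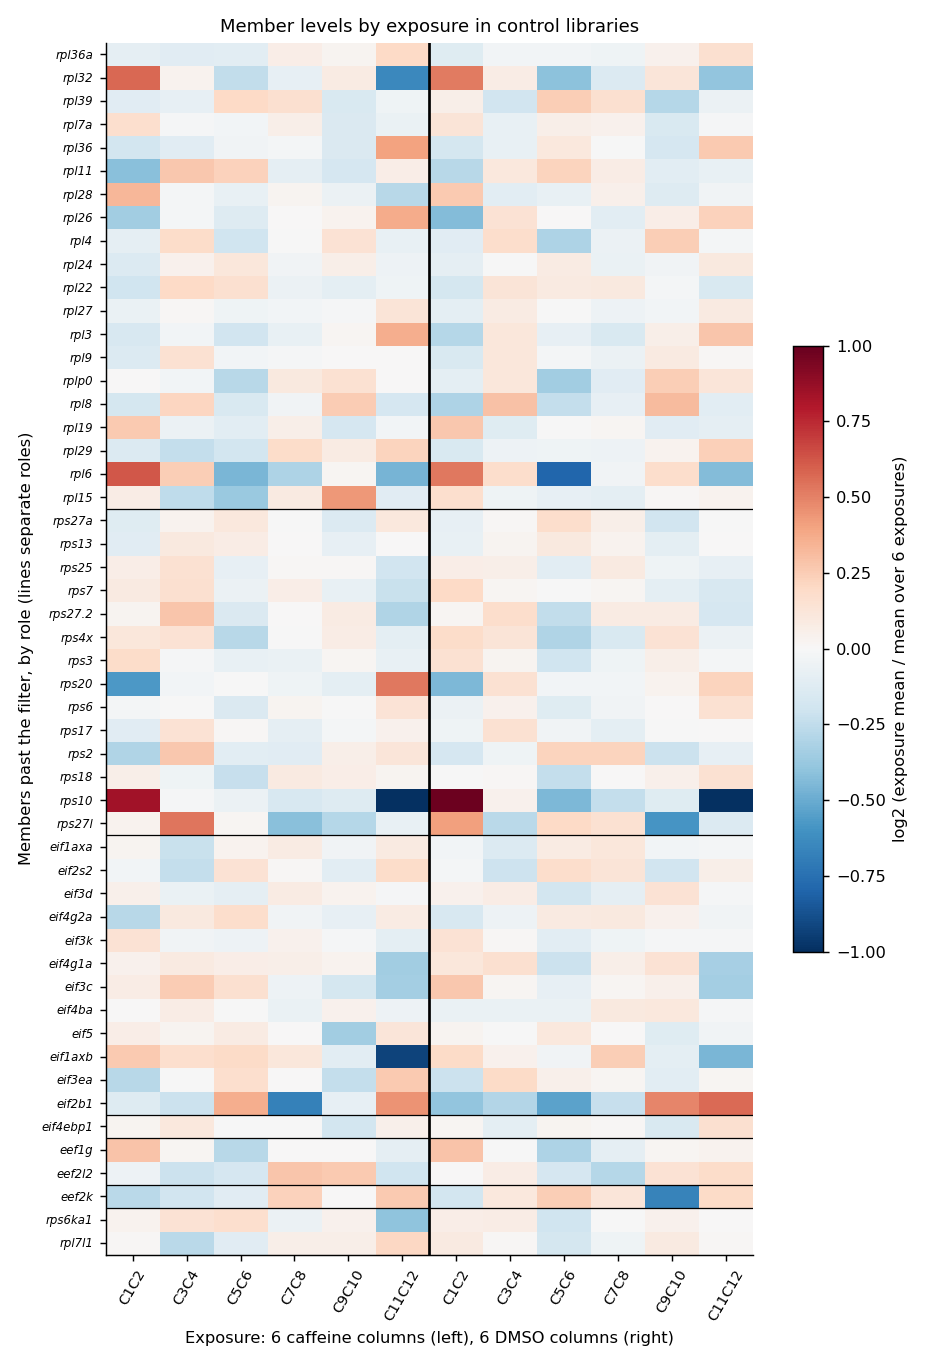
Level of the tested genes by exposure as log2 of the exposure mean over the mean of 6 exposures, with the 6 caffeine columns left and the 6 DMSO columns right, rows grouped by role; colours end at 1 log2 unit either way. In caffeine and in DMSO rpl32, rps10 and rpl6 are high in C1C2 and rps20 is low there, while strong colours in eif2b1 and eef2k belong to probes of few counts.

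Caffeine, a methylxanthine used here as the positive control, changed none of these genes past the threshold. Over the caffeine and DMSO plate libraries, fitted with a term for the exposure, 0 of 52 tested genes passed by edgeR, against a background of 4.26% of the 1363 tested probes. There were 3 with an unadjusted p below 0.05, and DESeq2 called 0, with 5 below 0.05 unadjusted. The median log2 change over the 52 genes was 0.02, and the range was -0.17 to 0.12. The initiation factor eif1axa came closest, with 18 caffeine libraries against 18 DMSO libraries differing by -0.14 ± 0.05 log2 (SE, adjusted p = 0.0769). It passed without exposure C11C12 and under scaling by library totals. The median standard error of a ribosomal protein's change was 0.0484 log2.

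In the QA set 0 of 53 genes passed by edgeR, against a background of 1.28% of the 1324 tested probes, with 3 below 0.05 unadjusted, and DESeq2 called 0, with 4 below 0.05 unadjusted. The log2 differences ran from -0.33 to 0.15. The highest was that of eif4ebp1, at 0.15 ± 0.07 (SE, adjusted p = 0.415), and the lowest that of eif2b1, a probe of few counts, at -0.33 ± 0.25 (SE, adjusted p = 0.793). Nothing in the labels says that each QA library had its own exposure, and p-values there reflect library-to-library spread, which may be technical. No gene passed the test of a caffeine change that differs between exposures (0 of 53, background 0% of 1506 probes, 1 below 0.05 unadjusted, smallest adjusted p = 0.990) or between the plate and QA libraries (0 of 53, background 0% of 1508 probes, 0 below 0.05 unadjusted, smallest adjusted p = 0.996) by edgeR. DESeq2 called 0 for both, with 1 and 0 below 0.05 unadjusted.

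Caffeine did move other genes in the same libraries. The stress-induced sestrin sesn1, a brake on mTOR, rose by 0.36 ± 0.07 log2 on the plates (SE, adjusted p = 0.00119), the only call among 4 tested mTOR and Myc regulators. Of 6 dividing-cell markers 4 fell on the plates and 1 in the QA set, and their summed level was 1237 ± 224 CPM in caffeine and 1601 ± 195 CPM in DMSO plate libraries (SD, n = 18 each).

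The 12 chemicals were compared with the DMSO larvae of their own exposure at each code, and by a linear slope over the 8 codes in log2 units per step towards D1. The slope gives DMSO no weight, though the DMSO libraries were part of the same fit. Over all 5088 comparisons of a gene with DMSO at a code, the log2 changes ran from -1.65 to 1.23 and 97.4% were within 0.5 of 0. Genes passed the threshold with 2 chemicals, 3,4-Dichlorophenyl isocyanate and 2-tert-Butyl-4-methoxyphenol, which were also those with the most calls over the whole panel.

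**Figure D4:**
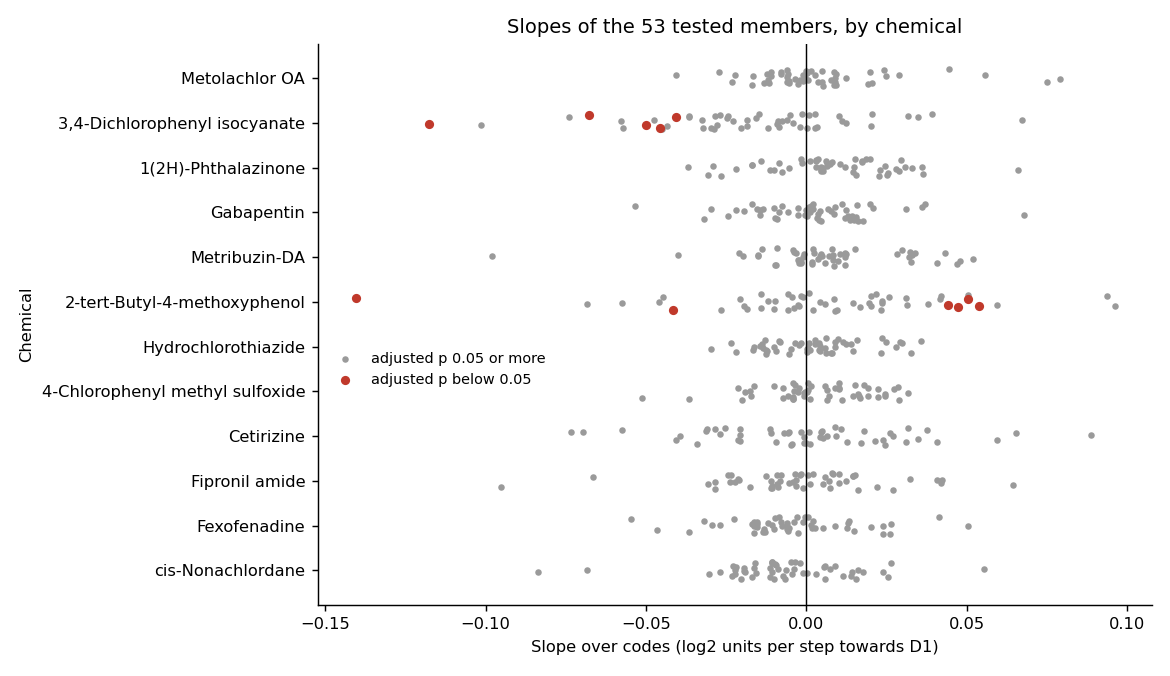
Slope over the codes (log2 units per step towards D1) of each tested gene, 1 row of points per chemical; red points passed an adjusted p of 0.05 over all tested probes. Red points appear in 2 rows only, 5 below 0 for 3,4-Dichlorophenyl isocyanate and 4 above and 2 below 0 for 2-tert-Butyl-4-methoxyphenol.

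With 3,4-Dichlorophenyl isocyanate, rpl11 fell at D1 and a few other ribosomal proteins fell by slope only. In the D1 libraries rpl11 was at 7359, 7584 and 7041 CPM, against 13150, 12625 and 13623 CPM in DMSO C1C2. The 2 groups did not overlap, and the D1 mean was 0.558 of the DMSO mean. The change was -0.91 ± 0.19 log2 (SE, edgeR, adjusted p = 0.00442 over all probes and codes), and rpl11 was the 1 of 53 genes called at a code, against a background of 4.25% of the 1507 tested probes. The other codes gave no even gradient. D2, D4 and D7 were also below DMSO without overlap, at 0.837, 0.833 and 0.835 of the DMSO mean, D6 was above it without overlap, at 1.08, and D3, D5 and D8 overlapped DMSO. The call at D1 was lost without replicate A or without replicate B, at -0.95 and -0.98 log2.

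By slope 5 of 53 genes fell and 0 rose, against a background of 18.7% of the 1507 tested probes. All 5 were ribosomal proteins. The slope of rpl11 was -0.12 ± 0.02 log2 per step (SE, adjusted p = 2.75e-05). The ubiquitin fusion rps27a had a slope of -0.05 (adjusted p = 0.0116), with 40849, 41448 and 41219 CPM at D1 and 49375, 48952 and 50069 CPM in DMSO. The tunnel protein rpl39 had a slope of -0.07 (adjusted p = 0.0118), with 24678, 21347 and 20551 CPM at D1 and 31050, 30754 and 26493 CPM in DMSO. In neither gene did the D1 and DMSO libraries overlap, and for rps27a D1 also lay below every library at D2 to D8. Against DMSO, rps27a was also lower without overlap at D7 (0.933 of the DMSO mean) and higher without overlap at D6 (1.06). The remaining codes of both genes overlapped DMSO.

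The small subunit protein rps13 had a slope of -0.04 (adjusted p = 0.0202), with 26544, 26874 and 27344 CPM at D1 and 31701, 30396 and 31578 CPM in DMSO, again without overlap. At D3 and D6 rps13 was above DMSO without overlap, at 1.09 and 1.07 of the DMSO mean. Its other codes overlapped DMSO. Also of the large subunit, rpl8, which lies near the catalytic centre, had a slope of -0.05 (adjusted p = 0.0485), and its D1 libraries, at 2026, 2255 and 2129 CPM, overlapped DMSO, at 1923, 2091 and 2500 CPM. The D1 levels of these genes entered the slopes that called them, so they are not separate support. With D1 left out of the slope 0 of 53 genes passed by edgeR, with 8 below 0.05 unadjusted, and without replicate B rpl11 alone passed. The calls of rps27a and rps13 were also lost without replicate A, and that of rpl8 without replicate C. Under scaling by library totals rps13 and rpl8 no longer passed, at -0.02 and -0.03 per step.

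**Figure D5:**
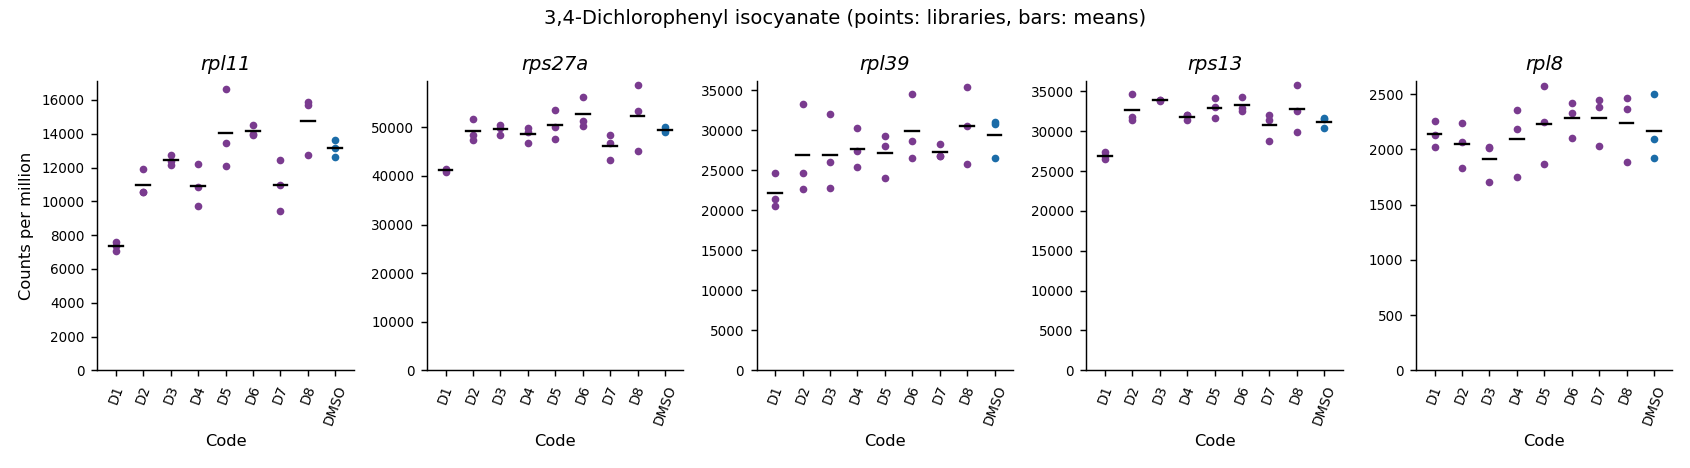
CPM (vertical axes) of rpl11, rps27a, rpl39, rps13 and rpl8 over the codes of 3,4-Dichlorophenyl isocyanate, D1 to D8, and in DMSO larvae of the same exposure at the right; points are libraries and bars are means of 3. The D1 libraries are below all DMSO libraries for the first 4 genes and among them for rpl8. These genes were picked by a slope that takes in D1, and the share of all probes separated in this way was not counted.

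Most of the genes were lower than DMSO at D1 with this chemical, passing or not, and so they were at each code from D2 to D7. All codes were compared with the same 3 DMSO libraries. At D1 the median log2 change was -0.12 over the 53 genes, with 14 above 0 and 14 below 0.05 unadjusted, and 0.01 over all probes. At D4 it was also -0.12, with 14 above 0 but 1 below 0.05 unadjusted. At D2 it was -0.08, with 12 above 0, and at D8 it was 0.06, with 36 above 0. Under library totals the sign of the median changed at D2, D7 and D8. The median slope was -0.02, with 14 of 53 slopes above 0 (under library totals it was 0.00). Values above DMSO were seen too: rpl32 was at 81959, 84452 and 72442 CPM at D1 against 59049, 52624 and 50320 CPM in DMSO (0.50 log2, adjusted p = 0.242), and eef1g at 3544, 3406 and 3662 CPM against 2866, 2695 and 2551 CPM (0.32 log2, adjusted p = 0.354). These 2 were picked out after their values were seen. Neither overlapped DMSO and neither passed. The share of counts was 45.3% ± 0.607 at D1 and 46.4% ± 0.478 in DMSO (SD, n = 3 each). Over the other codes its mean ran from 44.7% ± 0.209 at D6 to 46.5% ± 0.934 at D2 (SD, n = 3 each).

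With the plate letter as a block, 5 genes were called at a code (1 higher, 4 lower) and 18 by slope (2 rising, 16 falling). Here and below, the backgrounds given for a chemical are those of the fits without the block. Counts under the block therefore have no share of all probes beside them, and cannot be read as a result about these genes. The genes of the unblocked slope test were among the 18, which also held rpl32, eef1g, the initiation factors eif2s2 and eif3d and the small subunit proteins rps2, rps3, rps7 and rps20, named here after the calls were seen.

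Of 10 tested genes of ribosome biogenesis and RNA polymerase I, 2 fell at D1 and 4 by slope with the same chemical, against 4.25% and 18.7% of all tested probes, and the other 6 passed neither test. The assembly factor rrs1 fell by 1.05 ± 0.21 log2 and nop56, a core protein of the particles that guide ribosomal RNA methylation, by 0.58 ± 0.12 log2 at D1 (SE, adjusted p = 0.00297 and 0.00326). By slope rrs1 and nop56 fell again, at -0.09 and -0.06 per step, with the large subunit assembly factor ebna1bp2 at -0.09 (adjusted p = 0.000225) and the methyltransferase fbl at -0.15 (adjusted p = 0.0400). Of 12 tested mitochondrial ribosomal proteins 1 fell by slope, mrps16 at -0.08 (adjusted p = 0.0488), and ssb, the La protein that binds new small RNAs, fell by 0.08 per step (adjusted p = 0.00156). Tissue markers moved too. By slope 6 of 6 skin and skeleton, 4 of 6 dividing-cell and 2 of 3 gut and pancreas markers fell, and of 5 liver markers 2 rose and 1 fell. The skin and skeleton markers are all collagen genes, so they read collagen messages and not the tissue as a whole. The summed skin and skeleton markers were 40935 ± 3082 CPM at D1 and 55357 ± 1456 CPM in DMSO, and the dividing-cell markers 986 ± 22.6 CPM and 1640 ± 158 CPM (SD, n = 3 each). Their part in the fall of the ribosomal proteins was not tested.

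With 2-tert-Butyl-4-methoxyphenol the calls pointed both ways and rested largely on the lone D1 library. At a code 2 of 53 genes passed, 1 higher and 1 lower, against a background of 14.9% of the 1589 tested probes. The large subunit protein rpl8 was at 2521, 2601 and 4067 CPM at D2, against 2176, 2379 and 2289 CPM in DMSO C5C6, above them without overlap but with 1 library far above the others (0.41 ± 0.11 log2, SE, adjusted p = 0.0177). The call was lost without any of the replicates A, B or C, at 0.51, 0.52 and 0.16 log2, and without the D1 library, at 0.41 log2. The small subunit protein rps2 was at 1886 CPM in the D1 library, with an exact binomial 95% interval of 1772 to 2007 CPM that covers counting error only. The DMSO libraries held 5494, 4897 and 6701 CPM of rps2. The change was -1.65 ± 0.44 log2 (SE, adjusted p = 0.0258), where the lone library is assumed to vary like the other groups. At D2 to D8 rps2 overlapped DMSO, with means of 4520 to 6843 CPM. Without the D1 library 0 of 53 genes passed at a code by edgeR, with 17 below 0.05 unadjusted.

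By slope 6 of 53 genes passed with this chemical, 4 rising and 2 falling, against a background of 27.2% of the 1589 tested probes. The rising genes were rplp0, which anchors the stalk of the large subunit, rpl28, rpl8 and the small subunit protein rps27.2, at 0.05, 0.05, 0.04 and 0.05 log2 per step (adjusted p = 0.0170, 0.0124, 0.0167 and 0.0434). The falling genes were rps2 at -0.14 and rps27a at -0.04 (adjusted p = 0.00738 and 0.0372). The D1 library held 3513 CPM of rplp0, 16474 CPM of rpl28 and 44019 CPM of rps27a, against DMSO means of 2237 ± 316, 11647 ± 1263 and 59169 ± 2723 CPM (SD, n = 3 each). Without that library rpl8 and rps27.2 still passed and the other 4 did not, with rps2 and rps27a at -0.00 and rplp0 at 0.01 per step. Without replicate A, which holds that library, rps27.2 alone of the 6 passed, without replicate B rplp0 and rps27.2 did not pass, and without replicate C rpl28 and rplp0 alone of the 6 did. With the plate letter as a block 6 genes were called at a code (3 higher, 3 lower) and 15 by slope (12 rising, 3 falling).

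Regulators around translation were called with this chemical as well. The counts below stand against the same backgrounds, 14.9% of all tested probes at a code and 27.2% by slope. In the D1 library the sestrins sesn2 and sesn1 were higher by 3.23 ± 0.28 and 1.55 ± 0.33 log2 (SE, adjusted p = 1.20e-11 and 0.00179), 2 of 4 tested mTOR and Myc regulators, and the stress-responsive transcription factor cebpb by 3.80 ± 0.39 log2 (SE, adjusted p = 1.16e-09). These values compare 1 library with 3, and the lone library is assumed to vary like the other groups. By slope 3 of those 4 regulators rose, sesn1, sesn2 and rheb, the GTPase that switches mTOR on, the last at 0.08 per step (adjusted p = 0.0185). Of 14 tested mitochondrial ribosomal proteins 2 fell by slope, mrps17 and mrpl37, at -0.09 and -0.08 (adjusted p = 0.000835 and 0.0132), and 1 of 2 tested aminoacyl-tRNA synthetases rose, kars1 at 0.07 (adjusted p = 0.0154). The transcription factor cebpb also rose by slope, at 0.35 per step. Without the D1 library, left out after the data were seen, none of these slopes passed. They were then 0.10 for sesn2, 0.02 for sesn1, 0.04 for rheb and 0.07 for cebpb. For mrps17, mrpl37 and kars1 they were -0.04, -0.03 and 0.02. The smallest adjusted p without that library was 0.0662, that of sesn2. Tissue markers moved in the same library: the gut and pancreas markers summed to 350 CPM at D1 against 1813 ± 124 CPM in DMSO, the dividing-cell markers to 523 against 1700 ± 120 CPM, and the skin and skeleton markers to 33458 against 48526 ± 2140 CPM (SD, n = 3 for DMSO). Their part in the calls was not tested.

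With the other 10 chemicals none of the 53 genes passed by edgeR, at a code or by slope. The background was as low: 0% of probes for Metolachlor OA, 1(2H)-Phthalazinone, Gabapentin, Hydrochlorothiazide, 4-Chlorophenyl methyl sulfoxide, Fipronil amide and cis-Nonachlordane, by code and by slope. It was 0.0629% by code and by slope for Metribuzin-DA, 0% by code and 0.202% by slope for Cetirizine, and 0.0680% by code and 0% by slope for Fexofenadine. Genes with an unadjusted p below 0.05 at some code numbered 9 for Metolachlor OA, 5 for 1(2H)-Phthalazinone, 10 for Gabapentin, 10 for Metribuzin-DA, 6 for Hydrochlorothiazide, 8 for 4-Chlorophenyl methyl sulfoxide, 5 for Cetirizine, 5 for Fipronil amide, 6 for Fexofenadine and 17 for cis-Nonachlordane. By slope the same counts were 2, 3, 2, 6, 0, 2, 6, 3, 5 and 6. At the codes each gene had 8 comparisons in which to fall below 0.05. Neither set of counts has a share of all probes beside it, so neither can be read as a result about these genes. DESeq2 called 0 of the 53 genes for each of these chemicals, except 1 by slope for Cetirizine. That gene was the initiation factor eif4g2a, which by edgeR had the smallest adjusted p of the 10 chemicals, 0.0625, at 0.07 log2 per step. It passed as well with the plate letter as a block and without replicate A.

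Metolachlor OA shared its DMSO larvae with 3,4-Dichlorophenyl isocyanate, and the 2 sets of changes are therefore not independent. Its median over the 53 genes was below 0 at each of the 8 codes, from -0.10 at D7 to -0.06 at D4, with 13 to 19 genes above 0, while the median over all probes stayed between -0.01 and 0.01. The sign held under each of the 4 other scalings tried. The slope over its codes was -0.00 at the median, with 26 of 53 above 0. The share of counts in its 24 libraries averaged 44.5%, against 46.4% ± 0.478 in the 3 DMSO libraries. With Fipronil amide the median over the 53 genes lay between -0.00 and 0.07 at the codes. For the 10 chemicals the largest single changes belonged to probes of few counts: eef2k at 1.23 log2 in Cetirizine D5 and -1.23 log2 in Metribuzin-DA D4, and eif2b1 at -1.18 log2 in cis-Nonachlordane D6, none of which passed and which were picked out after their values were seen.

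The genes that regulate translation were followed through every comparison, whatever their test. The repressor eif4ebp1, which holds the cap-binding protein until mTOR phosphorylates it, was at 788, 1099 and 1354 CPM in caffeine plate libraries and 820, 1037 and 1333 CPM in DMSO plate libraries (lowest, median and highest, n = 18 each). The groups overlapped and the change was 0.10 ± 0.05 log2 (SE, adjusted p = 0.344). In the QA set it was at 898, 1029 and 1272 CPM in caffeine and 819, 974 and 1063 CPM in DMSO (lowest, median and highest, n = 8 each). At the codes of the 12 chemicals its changes ran from -0.20 to 0.27 log2, with 0 of 96 below 0.05 even before adjustment, and the smallest adjusted p was 0.601.

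The kinase eef2k, which slows elongation by phosphorylating elongation factor 2, was at 13.3, 24.9 and 32.6 CPM in caffeine and 8.99, 21.0 and 40.4 CPM in DMSO plate libraries (lowest, median and highest, n = 18 each). Its change was 0.06 ± 0.16 log2 on the plates and 0.03 ± 0.21 log2 in the QA set (SE). With a mean of 13 counts per library it was read with little precision, and its code changes ran from -1.23 to 1.23 log2 with a smallest adjusted p of 0.400. The signalling kinase rps6ka1, a target of the ERK pathway rather than part of the ribosome, was at 87.8, 124 and 164 CPM in caffeine and 91.3, 131 and 167 CPM in DMSO plate libraries (lowest, median and highest, n = 18 each). It changed by -0.05 ± 0.07 log2 on the plates and -0.17 ± 0.13 log2 in the QA set (SE), and by -0.42 to 0.41 log2 over the codes. None of the 3 passed in any comparison.

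Among the genes near translation that the name rule left out, the only further call with the 10 chemicals was kars1, the lysyl-tRNA synthetase, which fell by 0.10 ± 0.02 log2 per step with Cetirizine (SE, adjusted p = 0.0427). Over all comparisons 26 of the 55 genes, of which 53 were tested, passed a threshold at least once, and most of them in the comparison between exposures. The like share of all probes was not counted, so this number cannot be read as a result about these genes.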

How the data were processed

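The authors deposited whole-number counts per probe, with no sign of scaling in their totals. The submitters' processing notes name bcl2fastq. An aligner, the probe sequences and a build: not given in the sources used here. Every sample column matched a sample by its description, with 0 left unmatched. The titles of 26 libraries say DMSO where the treatment label says caffeine, and they were grouped as caffeine. Probe names gave the symbols, and RefSeq genes of assembly fPimPro1.hap1.1, used for names only, held all 55.

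The genes and lists were chosen with earlier results of these data known. Counts were tested with edgeR 4.0.16 (R 4.3.3, limma 3.58.1) with its quasi-likelihood F-test, TMM factors and a filterByExpr minimum count of 10, with Benjamini-Hochberg adjustment at 0.05 over all tested probes, and over all 8 codes of a chemical together. A fit took in all libraries of an exposure, with 1 mean for each group. A standard error is the log2 change divided by the square root of F. CPM uses library totals. DESeq2 1.42.0, other scalings, no filter, left-out replicates and a replicate block were alternatives. Library totals ran from 112247 to 1029511, and intervals cover counting error only. Genes were named if they passed, up to 10 per comparison, with a mean of at least 20 counts, beside the 6 with most counts and the regulators. The values of 1 gene are not reported here, though the counts include it.

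The letters A, B and C in the labels were read as the 3 plates within which the protocols pool larvae. The labels do not state this. On this reading the letters pair libraries of an exposure. In C11C12 the letter C libraries of both chemicals carry the same wells, so letter and well together do not name a single plate position. Libraries of the same letter correlated in their deviations from group means by 0.0156 to 0.223 on average, depending on letter and exposure.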

Additional observations from a re-analysis of the deposited data

Results flagged for a closer look

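The 8 libraries of each QA group were searched for a library standing far from the other 7 (Dixon's test at its 95% critical value), over 108 values, of which chance flags about 1 in 20. There were 10. In caffeine replicate 3, the share of counts of the 55 probes was 48.9% (others 44.4% to 46.0%), rps25 was at 41087 CPM (others 26779 to 31854), rps7 at 30449 CPM (others 21724 to 25439) and the initiation factor eif3k at 337 CPM (others 430 to 501). In DMSO replicate 3, rps25 was at 37368 CPM (others 26212 to 31349) and rps7 at 29606 CPM (others 22832 to 25814). Both libraries are on QA plate 2. The other libraries of that plate are replicate 4 of each group. In caffeine replicate 4, rps25 at 28203 CPM and rps7 at 22993 CPM were within the range of the rest. In DMSO replicate 4, rps7 at 25510 CPM was within it too. There rps25, at 31349 CPM, was the highest after replicate 3, followed by replicate 1 at 30515 CPM.

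The other 4 were in DMSO libraries. In replicate 2, rpl32 was at 32879 CPM (others 29291 to 30917) and rps4x at 9420 CPM (others 9831 to 10190). In replicate 1, rps27l was at 62.6 CPM (others 36.3 to 46.9), and in replicate 5, eef2k was at 40.1 CPM (others 19.4 to 24.7), both at low counts.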

How the results depend on the processing

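Leaving out each plate letter in turn gave 1 to 12 genes differing between exposures in DMSO (9 with all) and 3 to 12 in caffeine (19 with all). With 3,4-Dichlorophenyl isocyanate it gave 0 to 2 at a code (1 with all) and 1 to 8 by slope (5 with all), and with 2-tert-Butyl-4-methoxyphenol 1 to 3 at a code (2 with all) and 1 to 4 by slope (6 with all). For Cetirizine by slope it gave 0 to 1. The backgrounds given earlier belong to the main fits, so the counts in this section have no share of all probes beside them. DESeq2 called 15 genes between exposures in DMSO and 1 by slope for Cetirizine. Within C1C2 to C7C8, an alternative chosen after seeing the data, 5 genes differed in DMSO and 4 in caffeine. Without C1C2, also chosen afterwards, 1 and 8 did. Caffeine called 1 gene on the plates (eif1axa) under library totals or without C11C12. Without the D1 library of 2-tert-Butyl-4-methoxyphenol, chosen afterwards, 0 passed at a code and 2 by slope, and the slope without D1 gave 2, and 0 for 3,4-Dichlorophenyl isocyanate. The plate letter as a replicate block gave 14 and 10 genes between those 4 exposures in DMSO and caffeine, 5 at a code and 18 by slope for 3,4-Dichlorophenyl isocyanate, 6 and 15 for 2-tert-Butyl-4-methoxyphenol and 1 by slope for Cetirizine, and it changed no other count by over 1.5 times. The 2-tert-Butyl-4-methoxyphenol slopes of rplp0 and rps27a ran from -0.014 to 0.069 and from -0.050 to 0.0088 with a plate letter left out, and changed sign without replicate A, which holds the lone D1 library. The share of counts was 42.5% without rps27a, against 45.5%. The causes were not tested, save that the settings without plates or D1 use fewer libraries. Library totals moved the median over all probes by up to 0.145 log2, in 3,4-Dichlorophenyl isocyanate D8, and the other scalings by up to 0.0395. Of the other counts and shares 266 stayed within 1.5 times or the spread. Most comparisons had no call in the main fit, and a count of 0 in both fits was taken as unchanged. The 266 therefore say little about the comparisons with calls. Of the values of single genes 252 kept their side of the threshold and 98 lost it. The changes and slopes among these kept direction, while the tests between exposures have no direction to keep.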

Other observations

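In the QA set, the small subunit gene rps20, which no rule singled out, was also highest in replicate 3 of each group, at 13424 CPM in caffeine and 10503 CPM in DMSO. The next highest were replicate 7 of each group, at 10182 CPM in caffeine and 9285 CPM in DMSO. Replicate 4, on the same QA plate as replicate 3, was at 7564 CPM in caffeine and 8301 CPM in DMSO.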
